A study of Mus musculus with 147 samples.

Results

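Cyclin-dependent kinase inhibitors are the brakes of the cell cycle, and 7 genes of the mouse encode them: Cdkn1a, Cdkn1b and Cdkn1c of the Cip/Kip family, and Cdkn2a, Cdkn2b, Cdkn2c and Cdkn2d of the Ink4 family. They were chosen by name, and all 7 were among the 31053 genes of the deposited table of unique molecular identifiers (UMIs). Transcripts of single cells of the mouse male germ line were tagged with a UMI and read at their 3′ ends, by a variant of STRT-seq. Levels are given as CPM, the UMIs of a gene in the cells summed, scaled to a total of 1000000 UMIs. As each molecule is counted once at its 3′ end, CPM of different genes can be compared without their length.

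Wild-type cells came from offspring of C57BL/6 females and BVSC males, which carry the reporters Blimp1-mVenus and Stella-ECFP, both active in primordial germ cells (PGCs). Cells were taken at 26 time-points from E8.5 to PND35 and from adults, E being the embryonic and PND the postnatal day. Before birth, cells were sorted into a reporter-positive (BVSC) and a reporter-negative gate, and several embryos were pooled. Per the paper, Blimp1-mVenus fades from E14.5, and from then on cells positive for Stella-ECFP alone were taken. The gate named BVSC is therefore not the same before and after that day. After birth, cells that looked like germ cells were picked at random. A replicate was then 1 male, and part of the PND30 cells were sorted by DNA content. Helq null cells carry a small deletion in exon 1 of both alleles of Helq, a gene for a DNA helicase, on the same reporter background. These mice descend from targeted embryonic stem cells grown from single sorted cells, and the number of clones was not stated. UMIs were summed over the germ or somatic cells of a pool, a pool being the cells of 1 time-point, genotype and biological replicate. There were 54 wild-type and 9 Helq null pools, and p-values measure the spread between pools.

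Cip/Kip proteins bind complexes of cyclins with CDK2 and related kinases, whereas Ink4 proteins bind CDK4 and CDK6 and keep D-type cyclins away from them. Both keep the retinoblastoma protein Rb1 unphosphorylated, so that E2F factors do not drive cells into S phase. Male germ cells leave the cell cycle in the fetal testis, rest as prospermatogonia (ProSPG), divide again after birth as spermatogonia (SPG), and end mitosis as spermatocytes (SPC). Spermatocytes then pass through meiosis to round spermatids (RS). Each of these exits and entries is a step at which inhibitors of the cell cycle are known to act.

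Cdkn2a, Cdkn2b and Cdkn2c lie on chromosome 4, and Cdkn2a (chr4:89274471-89294653) and Cdkn2b (chr4:89306299-89311039) are separated by 11645 bases. Cdkn2c is at chr4:109660876-109667189, Cdkn2d at chr9:21288410-21291407 and Cdkn1c at chr7:143458339-143461050, and these 5 genes are read from the minus strand. Cdkn1a (chr17:29090976-29100727) and Cdkn1b (chr6:134920401-134925513) are read from the plus strand. Coordinates are those of GENCODE M21 on GRCm38. Cdkn1a overlaps AC167363.2 and Cdkn1c overlaps Gm44732, both read from the other strand. It was not stated whether counting used the strand. Gm44732 stood at 0.185 CPM at most in any sum of germ or somatic cells.

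Of 11066 cells that passed the filter, 8357 were wild-type germ cells in 52 sums, 1392 wild-type somatic cells in 35 sums and 758 Helq null germ cells in 9 sums. The germ sums of wild type held 11046661 to 197466652 UMIs, the somatic sums 1094550 to 21633953 and the null germ sums 15473182 to 38338265. Cells were classed by marker lists, and from E9.5 on 1753 of 1825 wild-type BVSC cells were classed as germ cells and 557 of 572 negative cells as somatic. At E8.5 all germ cells came from replicate 2, in which 87 of 95 cells were classed so, against 0 of 48 in each of the other replicates. The E17.5 BVSC gate of replicate 1 held 25 somatic among 72 cells. The sex is not given for 384 cells of E8.5 and E9.5 and 192 of E10.5. The 129 libraries used the same 96 cell barcodes, and no cell was listed more than once. Every library held 1 time-point, so that a difference between time-points cannot be told apart from one between libraries.

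The inhibitors took turns in the wild-type germ line, as the stacked plot of mean levels shows. Cdkn1a was the highest of the 7 in every pool from E8.5 to E15.5, Cdkn1c in every pool from E16.5 to PND0, Cdkn1a again in every pool from PND2 to PND6, and Cdkn2d in every pool from PND12 on. Both pools of PND8 had Cdkn1c highest, and those of PND1, PND7 and PND10 did not share a highest member. All 7 together reached 138.5 to 432.4 CPM. Cip/Kip transcripts made up 41.7% to 79.4% of them up to PND10 and 4.56% to 37.5% from PND12 on.

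**Figure D1:**
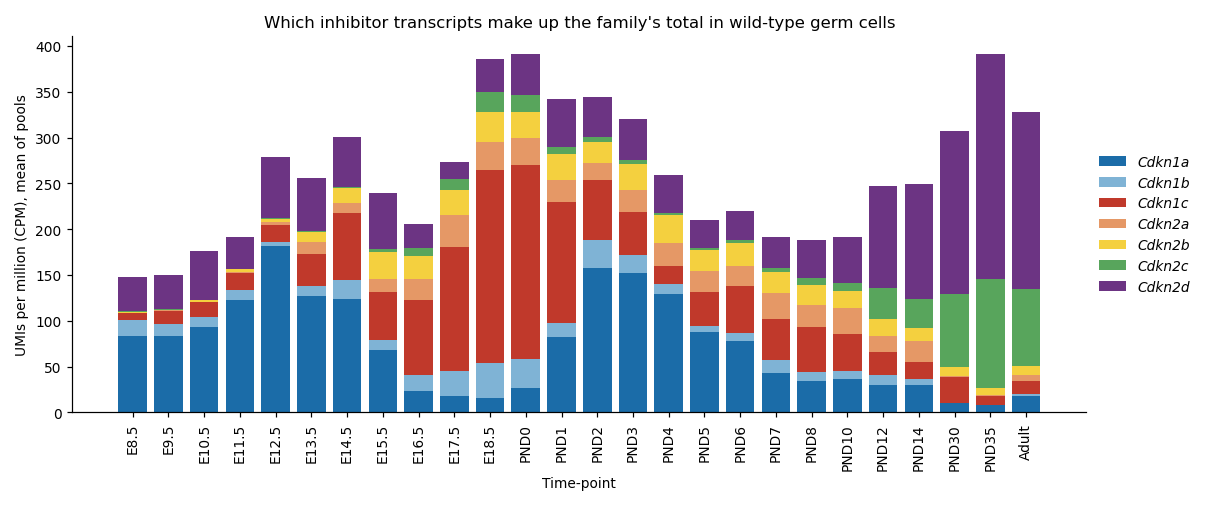
Mean level of each inhibitor transcript in wild-type germ cells, stacked, by time-point from E8.5 to adult (vertical axis CPM, mean of the pools of a time-point). Cdkn1a fills the largest part up to E15.5 and again from PND2 to PND6, Cdkn1c from E16.5 to PND0, and Cdkn2d from PND12 on.

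Cdkn1a, an inhibitor known as a target of Trp53, rose and fell in 2 waves. It stood at 83.5 CPM at E8.5, reached 218.1 and 145.4 CPM at E12.5, fell to 7.35 and 24.2 CPM at E18.5, and stood at 133.1 and 181.8 CPM at PND2 and 101.3 and 203.8 CPM at PND3. The ranges of E12.5, PND2, PND3 and PND4 (91.4 and 167.1 CPM) overlapped, so that their order is within the spread of pools. The lowest time-point, PND35, had 7.54 and 7.67 CPM. Replicates of PND1 lay far apart, at 126.9 and 36.5 CPM.

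Cdkn1c, an imprinted gene known as a brake on growth in many embryonic tissues, filled the gap between these waves. Its level was 7.17 CPM at E8.5, 11.7 and 26.9 CPM at E12.5, 96.0 and 68.7 CPM at E16.5, 123.8 and 147.7 CPM at E17.5, 218.1 and 203.7 CPM at E18.5, and 225.4 and 197.3 CPM at PND0. The E18.5 and PND0 ranges overlapped, and both lay above the range of E17.5. By PND4 it was at 20.1 and 18.6 CPM. Its replicates at PND1, at 89.4 and 174.1 CPM, differed in the direction opposite to those of Cdkn1a.

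Cdkn1b, the Cip/Kip inhibitor known for holding quiescent cells, was low throughout and also highest around birth. It had 41.8 and 33.7 CPM at E18.5, 38.5 and 26.3 CPM at PND0, 1.93 and 5.51 CPM at E12.5, and 0.314 and 0.0383 CPM at PND30. The ranges of E18.5, PND0 and PND2 (42.3 and 18.4 CPM) overlapped. The PND30 and PND35 pools were the lowest of all, at 0.314 CPM or less.

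Cdkn2a and Cdkn2b, neighbours on chromosome 4, came up together in the fetal gonad and stayed. Cdkn2a had 0 UMIs in the E8.5 sum, where 3 UMIs would make 0.0882 CPM, and stood at 3.44 CPM or less up to E12.5. From E13.5 to PND14 it lay between 8.54 and 44.1 CPM, with its highest mean at E17.5 (26.6 and 44.1 CPM). In E17.5 replicate 1 fewer cells carried it than carried Amh, a Sertoli cell hormone, as given below. Cdkn2b stayed at 4.52 CPM or less up to E12.5 and lay between 8.30 and 50.2 CPM from E13.5 to PND14. Ranges of neighbouring time-points overlapped for both genes through most of that plateau. At PND30 and PND35 Cdkn2a was back at 0.729 to 1.24 CPM, while Cdkn2b kept 7.67 to 12.3 CPM. Over the means of 25 time-points from E9.5 to adult, log2(CPM + 1) of the 2 genes had a Pearson correlation of 0.90, the highest among the 7 members. These time-points share libraries and depth between genes.

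Cdkn2a encodes 2 proteins, the CDK4 and CDK6 inhibitor INK4A and, from another exon 1 and another reading frame, ARF, which is known to bind Mdm2. The UMIs were counted per gene and do not separate them. Both annotated transcripts share exon 2 (chr4:89276645-89276985), and the 575 bases from its start onwards are identical. After exon 1 Cdkn2a-201 is annotated with 645 bases and Cdkn2a-202 with 575, so that their annotated 3′ ends differ. Cdkn2a-201 starts with the exon at chr4:89281986-89282192 and Cdkn2a-202 with that at chr4:89294334-89294653. Their junctions are shown, as reads in exon 1 or across its junction would tell the transcripts apart. The 15 bases of exon 1 are in lower case and the 15 of exon 2 in capitals.
Cdkn2a-201: cgtaccccgattcagGTGATGATGATGGGC
Cdkn2a-202: ggaatcctggaccagGTGATGATGATGGGC

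Cdkn2c and Cdkn2d were the inhibitors of the late germ line. Cdkn2c was at 1.23 CPM or less up to E14.5, made a small fetal rise to 24.4 and 19.2 CPM at E18.5, fell to 2.42 and 3.54 CPM at PND4, and stood at 71.2 and 87.5 CPM at PND30 and 140.5 and 95.9 CPM at PND35. Cdkn2d was present at every time-point, at 74.7 CPM or less up to PND10 and lowest in E17.5 replicate 1, with 297 of 17985719 UMIs. It stood at 71.1 and 151.4 CPM at PND12, 92.1 and 159.6 CPM at PND14 and 237.2 and 254.7 CPM at PND35. Replicate 2 of PND12 and of PND14 had more of both genes than replicate 1, and it also held more spermatocyte-like cells (96 of 184 against 21 of 64, and 226 of 366 against 105 of 394). For both genes the ranges of PND30 and adult overlapped (adult Cdkn2d 176.1 and 210.6 CPM).

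**Figure D2:**
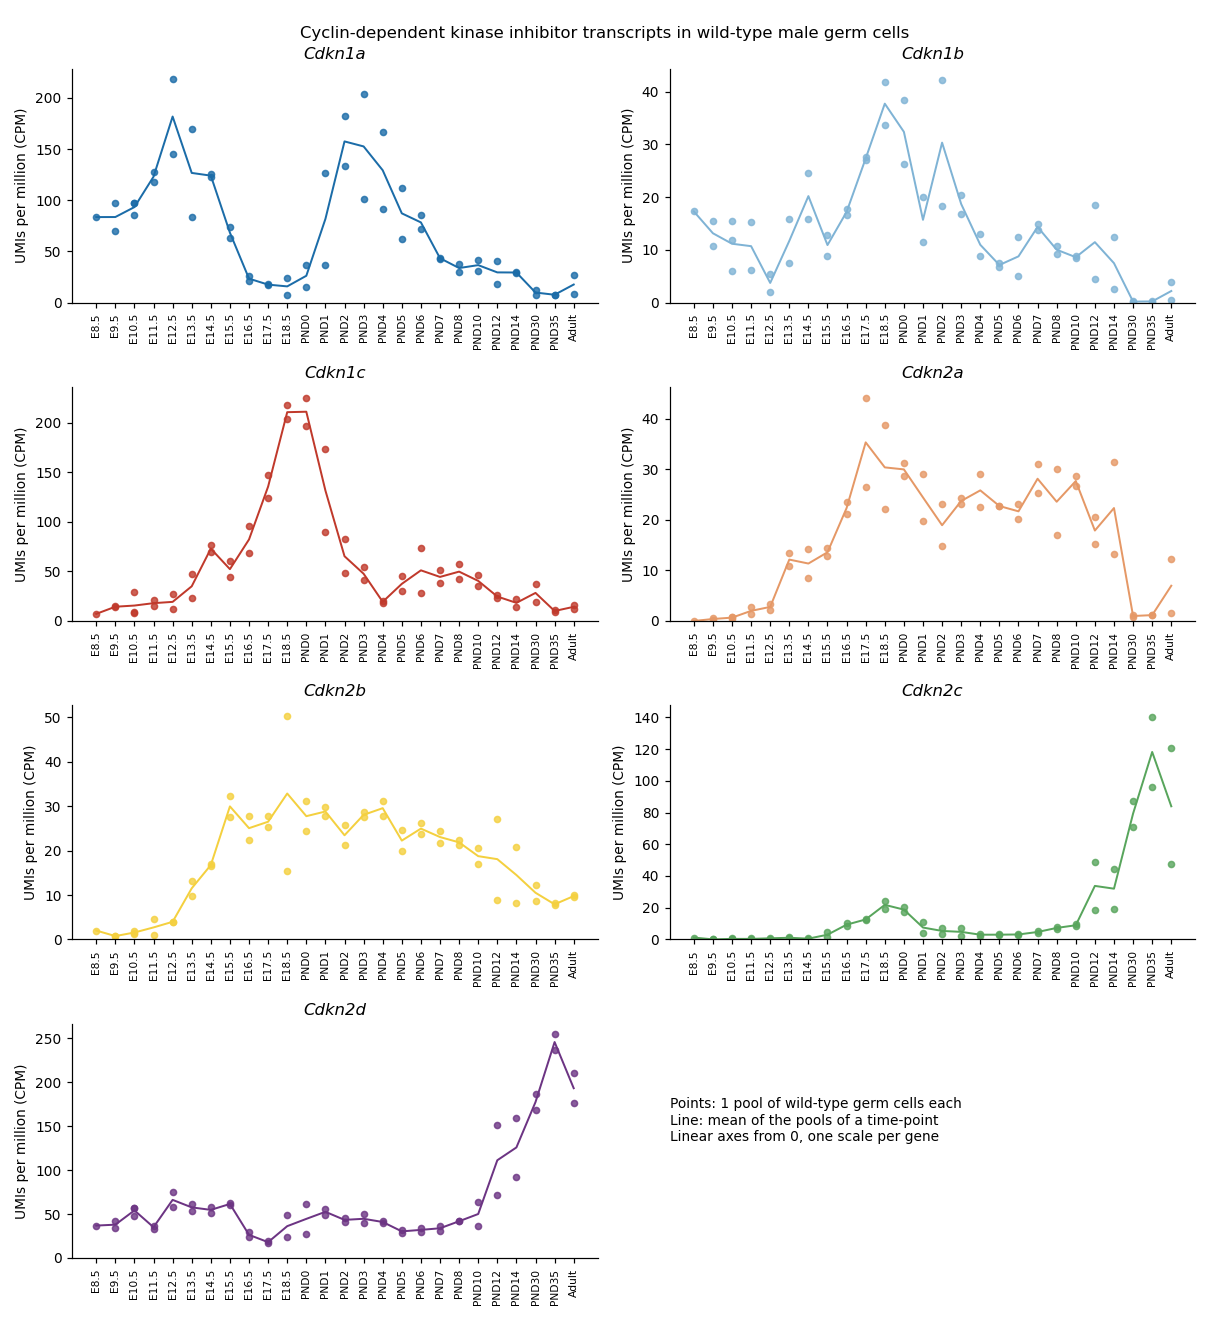
Level of each of the 7 inhibitors in wild-type germ cells (vertical axes CPM, linear from 0 with a scale per gene; horizontal axes time-points from E8.5 to adult). Points are pools and lines are means of the pools. Cdkn1a has 2 waves around E12.5 and PND2 to PND3, Cdkn1c a peak at E18.5 and PND0, Cdkn2a and Cdkn2b a plateau from E13.5 to PND14, and Cdkn2c and Cdkn2d their highest levels from PND30 on.

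The bases before the starts of the Ink4 genes that moved together are shown beside these levels, 250 bases each, from RefSeq on GRCm38.p6. These RefSeq starts can lie inside the GENCODE bounds given above. Both windows of Cdkn2c, the first of Cdkn2a and most of that of Cdkn2d fall within those bounds. The other windows overlap them at an edge. Capitals mark, on either strand, the GC box GGGCGG, the CCAAT box, an E2F site (TTTGGCGC, TTTCGCGC, TTTCCCGC or TTTGCCGC) and the cyclic AMP response element TGACGTCA. The TATA box TATAAA and the E-box CACGTG were also searched. Motifs of this set can overlap each other. Cdkn2a and Cdkn2c have 2 starts each in the table, and 6 of the 7 members had an entry (not Cdkn1c).
Cdkn2a, chr4:89282193-89282442, minus strand: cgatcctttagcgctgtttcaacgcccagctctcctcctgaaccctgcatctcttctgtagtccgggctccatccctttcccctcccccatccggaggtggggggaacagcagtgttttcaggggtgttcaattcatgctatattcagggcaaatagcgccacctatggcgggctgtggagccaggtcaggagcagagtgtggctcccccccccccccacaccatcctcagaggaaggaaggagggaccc
Cdkn2a, chr4:89294620-89294869, minus strand: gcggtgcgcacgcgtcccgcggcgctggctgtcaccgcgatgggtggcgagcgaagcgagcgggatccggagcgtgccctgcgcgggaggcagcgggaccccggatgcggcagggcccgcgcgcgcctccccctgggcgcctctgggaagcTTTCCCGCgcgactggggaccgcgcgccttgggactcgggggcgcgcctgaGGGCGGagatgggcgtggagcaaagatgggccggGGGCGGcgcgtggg
Cdkn2b, chr4:89311033-89311282, minus strand: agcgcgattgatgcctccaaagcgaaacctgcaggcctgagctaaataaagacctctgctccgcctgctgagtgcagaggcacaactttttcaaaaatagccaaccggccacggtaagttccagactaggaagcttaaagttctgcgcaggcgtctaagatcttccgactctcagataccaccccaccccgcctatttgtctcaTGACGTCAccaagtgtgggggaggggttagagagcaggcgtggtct
Cdkn2c, chr4:109665373-109665622, minus strand: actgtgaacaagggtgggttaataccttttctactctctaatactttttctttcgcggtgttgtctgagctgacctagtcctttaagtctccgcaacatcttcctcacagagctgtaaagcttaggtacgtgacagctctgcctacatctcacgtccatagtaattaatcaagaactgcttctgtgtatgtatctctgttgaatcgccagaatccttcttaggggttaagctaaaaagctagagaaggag
Cdkn2c, chr4:109666757-109667006, minus strand: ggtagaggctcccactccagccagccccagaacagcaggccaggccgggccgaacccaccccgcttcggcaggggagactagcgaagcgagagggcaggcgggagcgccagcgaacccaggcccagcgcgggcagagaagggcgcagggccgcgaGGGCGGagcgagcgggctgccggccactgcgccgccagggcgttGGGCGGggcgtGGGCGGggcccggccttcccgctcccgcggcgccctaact
Cdkn2d, chr9:21291210-21291459, minus strand: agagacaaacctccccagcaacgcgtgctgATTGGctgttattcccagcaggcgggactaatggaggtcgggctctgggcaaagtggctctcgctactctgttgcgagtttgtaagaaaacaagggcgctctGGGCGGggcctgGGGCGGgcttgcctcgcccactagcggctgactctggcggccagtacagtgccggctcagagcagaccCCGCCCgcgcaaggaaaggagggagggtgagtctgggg

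The upstream start of Cdkn2c and the start of Cdkn2d held 3 GC boxes each, in windows with 29 and 16 CpG dinucleotides, against a median of 6 over all 32851 promoters. A GC box occurred in 32.7% of all promoters, so that a match is common. The upstream start of Cdkn2a held 2 GC boxes, 1 E2F site and 40 CpG dinucleotides, and that of Cdkn2b held 1 cyclic AMP response element, against 1.86% and 1.55% of all promoters with an E2F site or such an element. The CCAAT box of Cdkn2d was of a motif found in 33.8% of all promoters. No TATA box or E-box lay in the 6 windows, against 12.4% and 6.02% of all. These matches are letters in a window, and binding was not measured.

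Levels per sum do not say how many cells carry a transcript, and fewer such cells and less RNA per cell cannot be told apart from them. The share of cells with at least 1 UMI was therefore taken after each cell was thinned to 50000 UMIs. For Cdkn1c it was 98.6% and 95.3% of cells at E18.5, from 30.8% and 59.4% at E12.5, and 34.7% and 47.2% at PND4. Without thinning, these were every cell of both E18.5 pools, 63.6% and 91.5%, and 59.3% and 72.7%. Cdkn2d was found in 99.4% of thinned PND35 cells of replicate 1, in every one of replicate 2, and in 32.9% and 56.2% of those at E18.5. Without thinning it was found in 99.7% and in every cell at PND35, and in 58.3% and 86.2% at E18.5. Amh, a Sertoli cell hormone that germ cells should lack, was found in 4.29% and 14.1% of thinned germ cells at E18.5, in 9.23% and 1.45% at E12.5, and in 2.31% and 22.0% at PND4. At E17.5 it was found in 73.3% and 30.4%. In replicate 1 every member but Cdkn1c (91.1%) had a lower share, among them Cdkn1a (24.4%), Cdkn2a (42.2%) and Cdkn2b (46.7%). In replicate 2 Cdkn1a (29.0%) and Cdkn2c (23.2%) did. A share at or below that of Amh is read as background only where somatic cells of that pool also had more of the gene. In E17.5 replicate 1 Cdkn2a had 26.6 CPM in germ and 0.519 CPM in somatic cells, and Cdkn2b 27.7 and 0.519 CPM. Neither is read so there. Cdkn1a and Cdkn1b were also higher in the germ cells of that pool, and Cdkn2c and Cdkn2d in its somatic cells. Cdkn2c also lay below Amh in every pool of PND5 to PND7, at 8.24% to 14.4% against 11.8% to 28.6%. Without thinning, Amh was found in 16.7% and 55.4% of germ cells at E18.5 and in 95.7% and 71.4% at E17.5. The median depth of these pools was 264591 to 431126 UMIs per cell, and 1 to 10 cells of each were left out as too shallow.

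Changes between stages were tested with edgeR's quasi-likelihood test over all genes of the sums, and a gene was called at a Benjamini-Hochberg adjusted p below 0.05. Log2 fold changes are given with their standard error (SE). Where groups of sums are said not to overlap, the share of all genes without overlap was not counted. Lack of overlap is therefore not read as particular to the members. Comparisons next to each other share sums: those of E11.5 and E12.5 serve the first pair, those of E16.5 the arrest and the return to division, those of PND5 to PND7 the return and meiosis, and the late SPC sums meiosis and RS.

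When PGCs entered the gonad, Cdkn1a was the only member called. It stood at 97.5 and 69.6 CPM at E9.5 and 85.3, 97.0 and 97.5 CPM at E10.5, and at 127.8 and 118.1 CPM at E11.5 and 218.1 and 145.4 CPM at E12.5. All 4 gonadal sums lay above the 5 earlier ones. The log2 difference was 0.76 (SE 0.17, edgeR adjusted p = 0.015), 1 of 7 members called, against 9.29% of 14677 genes (3.94% higher and 5.35% lower). Without E12.5 replicate 1 the difference was 0.52 and the call was lost (adjusted p = 0.054). Cdkn2a went from 0.186 to 0.842 CPM to 1.29 to 3.44 CPM, groups that did not overlap, with a log2 difference of 2.07 (SE 0.70, adjusted p = 0.077), and DESeq2 called it. The median over the members was 0.76 and over all genes -0.01. Of the 26 genes of the CDK pathway list, 2 were higher (Cdk6 and Mdm2) and 2 lower (Ccnd1 and Ccnd2, D-type cyclins). The sex is not given for the E9.5 cells and for 192 cells of E10.5, although the paper describes choosing males by PCR at E10.5. Per the paper, cells up to E10.5 came from whole embryos. The part of sex and of tissue in these differences was not tested.

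At mitotic arrest the members parted: 4 were higher and 1 lower in E15.5 and E16.5 than in E11.5 and E12.5 germ cells, 5 of 7 called. Over all 17050 genes 56.9% were called, 32.6% higher and 24.3% lower. The positive gate changed between these days, and its part in the differences was not tested. Cdkn1a fell to 62.7 and 73.8 CPM at E15.5 and 20.7 and 26.0 CPM at E16.5, all below the 118.1 CPM that was lowest before (log2 difference -1.99, SE 0.42, edgeR adjusted p = 0.002). Cdkn1c rose, from 21.3, 14.7, 11.7 and 26.9 CPM to 60.4, 44.3, 96.0 and 68.7 CPM, with no overlap (1.56, SE 0.29, adjusted p = 0.001). Cdkn1b overlapped, at 1.93 to 15.3 CPM before and 8.92 to 17.7 CPM after (0.66, SE 0.55, adjusted p = 0.32).

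All Ink4 genes but Cdkn2d rose with arrest. Cdkn2a went from 2.71, 1.29, 2.13 and 3.44 CPM to 12.8, 14.4, 23.6 and 21.1 CPM (log2 difference 2.62, SE 0.42, edgeR adjusted p = 0.00039). Cdkn2b went from 0.889, 4.52, 3.91 and 4.03 CPM to 32.3, 27.6, 22.3 and 27.8 CPM (2.75, SE 0.47, adjusted p = 0.00054). Cdkn2c went from 0 to 0.977 CPM to 4.54, 1.42, 8.5 and 10.1 CPM (3.18, SE 1.01, adjusted p = 0.019). None of these 3 overlapped between the groups. Without E16.5 replicate 2 the call of Cdkn2c was lost (adjusted p = 0.058), and without E11.5 replicate 2 Cdkn1b was called (1.33, adjusted p = 0.043). Cdkn2d, at 33.3 to 74.7 CPM before and 23.5 to 62.6 CPM after, had a log2 difference of -0.46 (SE 0.38, adjusted p = 0.32).

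Of the 26 genes of the pathway list, 17 were lower and 4 higher over the same interval, with a median log2 difference of -1.05 against 1.56 over the members and 0.25 over all genes. Lower were the proliferation marker Mki67 (-3.76, SE 0.36), the mitotic kinase Cdk1 (-2.91, SE 0.43), Ccne1, the E-type cyclin partner of Cdk2 (-4.50, SE 0.28), and Trp53 (-3.29, SE 0.45). Of the kinases that the inhibitors bind, Cdk4 was lower (-0.48, SE 0.12), and Cdk2 (0.55, SE 0.25, adjusted p = 0.078) and Cdk6 (-0.36, SE 0.28, adjusted p = 0.28) were not called. Higher were Ccnd2 (2.03, SE 0.37), the meiotic cyclin Ccna1 (3.90, SE 0.99), Rbl2, a relative of Rb1 (2.12, SE 0.63), and Mdm2 (0.35, SE 0.13). Endoderm markers moved with arrest, from 3.44 to 11.9 CPM summed (4 of 5 detected, Spink1 at 0) to 179.9 to 432.8 CPM (5 of 5). Sertoli markers had 12.3 to 35.3 CPM before (7 of 8, Fshr at 0) and 12.6 to 67.9 CPM after (8 of 8). Interstitial and peritubular markers had 4.36 to 21.6 CPM and 20.3 to 165.2 CPM, 9 of 9 detected in each. Mesoderm markers had 0.156 to 0.525 CPM and 14 to 18.7 CPM with no overlap (4 of 4 in each), and Leydig markers 2.85 to 24.3 CPM and 19.8 to 309.1 CPM (5 of 5 in each). Over E11.5 to E18.5 endoderm markers had a median of 145.8 CPM in the BVSC and 11 CPM in the negative gate. For mesoderm markers the medians were 11.6 and 10.8 CPM. Whether RNA of other cells had a part in the differences was not tested.

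When germ cells divided again after birth, Cdkn1a came back and Cdkn1b, Cdkn1c and Cdkn2c went down, 4 of 7 members called against 70.4% of 20722 genes (29.9% higher and 40.5% lower). The groups were 8 sums of E16.5 to PND0 and 6 of PND5 to PND7. Fetal cells were sorted by reporter and postnatal cells picked by shape, and the part of this was not tested. Cdkn1a had 7.35, 19.5 and 36.7 CPM (lowest, median, highest) before and 43.0, 66.8 and 112.1 CPM after, with no overlap (log2 difference 2.14, SE 0.28, edgeR adjusted p = 2e-06). Cdkn1c had 68.7, 172.5 and 225.4 CPM before and 28.4, 41.5 and 73.9 CPM after (-1.45, SE 0.23, adjusted p = 2e-05), and 1 sum on each side lay in the overlap. Cdkn1b had 16.7, 27.4 and 41.8 CPM before and 5.13, 10.0 and 14.9 CPM after (-1.10, SE 0.25, adjusted p = 0.00069), with no overlap. At PND6 its share of thinned cells was at or below that of Amh (28.6% and 16.1% against 28.6% and 27.4%). Somatic cells of those pools had more of it, so that its PND6 level is read as background.

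Among Ink4 genes only Cdkn2c was called in this comparison. It fell from 8.5, 15 and 24.4 CPM to 2.53, 3.44 and 5.07 CPM, with no overlap (-1.70, SE 0.27, edgeR adjusted p = 1.5e-05). Its share of thinned cells lay below that of Amh in every pool of PND5 to PND7, as in both E17.5 pools. Somatic cells of all these pools had more of it. Its level after is therefore read as background. Cdkn2a, at 21.1 to 44.1 and 20.2 to 31.0 CPM, had a difference of 0.12 with a 95% interval of -0.26 to 0.49, and Cdkn2b, at up to 50.2 and at 19.8 to 26.2 CPM, one of 0.14 with an interval of -0.28 to 0.55. For both the median CPM was lower after (27.6 and 23.0 CPM, and 26.5 and 24.0 CPM), while the fit, whose TMM scaling adjusts the library totals, gave differences above 0. With relative log expression (RLE) scaling these were -0.004 and 0.02. Cdkn2d had a median of 25.4 and at most 61.6 CPM before, and 28.3, 31.6 and 36.4 CPM after (0.44, SE 0.23, adjusted p = 0.099). Without E18.5 replicate 2 or PND0 replicate 1, the sums in which it was highest, it was called (difference up to 0.66, adjusted p down to 0.0092). Of the pathway list 20 genes were higher and 3 lower, with a median of 1.36 against 0.12 over the members and -0.28 over all genes. Higher were Ccnd1 (3.70, SE 0.36), Cdk1 (3.46, SE 0.19), Mki67 (3.45, SE 0.23) and Trp53 (3.16, SE 0.25), and lower were Ccna1 (-2.43, SE 0.33), Rbl2 (-1.33, SE 0.35) and Mdm2 (-0.35, SE 0.09). Sertoli markers summed to 20.5 to 180.4 CPM before and 24.1 to 250.6 CPM after, 8 of 8 detected. Blood markers went from 95.4 to 448.8 CPM to 19.3 to 83.8 CPM (10 of 10 detected in each), and endothelial markers from 14.6 to 47 CPM to 3.07 to 7.68 CPM (4 of 4), both without overlap. Leydig markers (5 of 5) had a median of 87.2 CPM before and 43.3 CPM after. The part of these cells' RNA in the members' falls was not tested.

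In spermatocytes the Ink4 genes parted, with Cdkn2c and Cdkn2d up and the other 5 members down, 7 of 7 called against 77.1% of 19502 genes (43.3% higher and 33.8% lower). Spermatocyte-like cells of PND30, PND35 and adults (6 sums) were compared with germ cells of PND5 to PND7 (6 sums). Cdkn2c had 2.53, 3.44 and 5.07 CPM in the younger cells and 54.2, 125.2 and 158.5 CPM in SPC (log2 difference 5.69, SE 0.33, edgeR adjusted p = 1.9e-08). As given above, its level in the younger cells is read as background against Amh. Cdkn2d had 28.3, 31.6 and 36.4 CPM and 203.4, 268.0 and 326.2 CPM (3.70, SE 0.17, adjusted p = 3e-09). Neither overlapped. Spermatocyte-like cells showed this before PND30 as well, with Cdkn2d at 124.5 and 208.7 CPM at PND12 and 147.0 and 219.6 CPM at PND14, while the spermatogonia-like cells of the same 4 pools had 57.3, 49.0, 76.4 and 60.8 CPM.

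The members that fell included all Cip/Kip genes. As given above, the PND6 level of Cdkn1b in the younger cells is read as background. Cdkn1b had 5.13, 10.0 and 14.9 CPM in the younger cells and 0.0375, 0.169 and 1.99 CPM in SPC (log2 difference -3.95, SE 0.78, edgeR adjusted p = 0.00051). Cdkn1a had 43.0, 66.8 and 112.1 CPM and 2.37, 5.60 and 25.8 CPM (-2.60, SE 0.49, adjusted p = 0.00035), and Cdkn1c had 28.4, 41.5 and 73.9 CPM and 5.76, 6.70 and 8.86 CPM (-2.05, SE 0.23, adjusted p = 3.9e-06). Cdkn2a had 20.2, 23.0 and 31.0 CPM and 1.24, 1.48 and 8.40 CPM (-2.71, SE 0.45, adjusted p = 0.00012), and Cdkn2b had 19.8, 24.0 and 26.2 CPM and 6.07, 7.58 and 9.10 CPM (-1.0, SE 0.19, adjusted p = 0.00041). The groups did not overlap for any of the 5.

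The highest SPC value of Cdkn1a, Cdkn1b, Cdkn1c and Cdkn2a was that of adult replicate 1, which also had the lowest Cdkn2c and Cdkn2d. It had about 13 CPM of Ccna1 and 480.3 CPM of Leydig markers summed, against 252.8 to 302.7 CPM and 4.80 to 10.9 CPM in the other 5 sums. All 7 calls stood in each fit that left out 1 pool. Without adult replicate 1, the log2 differences of 3 members moved by over 1.5 times in fold: Cdkn1b to -5.16, Cdkn1a to -3.29 and Cdkn2a to -3.40. Of the pathway list 9 genes were higher and 12 lower, with a median of -0.28 against -2.05 over the members and 0.23 over all genes. The D-type cyclins Ccnd1 (-4.38, SE 0.80), Ccnd2 (-6.43, SE 0.75) and Ccnd3 (-2.87, SE 0.29), which pair with the kinases that Ink4 proteins bind, were lower, and so was Cdk4 (-1.95, SE 0.33). Ccna1 was higher (6.75, SE 0.72). Sertoli markers summed to 24.1 to 250.6 CPM in the younger cells and 5.78 to 109.8 CPM in SPC (8 of 8 detected in each), and endoderm markers to 300.6 to 429.3 CPM and 1.09 to 12.2 CPM (5 of 5). Over PND0 to PND14 endoderm markers had a median of 412.6 CPM in germ and 62 CPM in somatic sums. Whether RNA of other cells had a part in the members' falls was not tested.

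In spermatid-like cells, named RS below, Cdkn1c and Cdkn1a came up and Cdkn2d, Cdkn2c and Cdkn2a went down. Of 7 members 5 were called, against 57.9% of 20916 genes (31.9% higher and 26% lower). Spermatid-like cells gave 5 sums, as adult replicate 1 held 3 such cells. The class rests on markers and was not all haploid: 203 of 277 cells sorted as 2N and 42 of 286 sorted as 4N at PND30 fell in it. Cdkn1c stood at 26.2 and 85.9 CPM at PND30, 27.3 and 27.2 CPM at PND35 and 35 CPM in the adult, and in SPC at 5.76 to 8.86 CPM (log2 difference 2.50, SE 0.34, edgeR adjusted p = 0.00011). Cdkn2d stood at 84.8, 61.0, 107.0, 127.5 and 113.5 CPM, all below the 203.4 CPM that was lowest in SPC (-1.47, SE 0.19, adjusted p = 6.7e-05). Cdkn2c stood at 37.8, 42.0, 69.2, 53.5 and 70.7 CPM against 54.2 to 158.5 CPM in SPC (-1.14, SE 0.29, adjusted p = 0.006), with an overlap at adult replicate 1.

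The other calls between RS and SPC were less stable. Cdkn1a had 10.1, 25.9, 13.1, 18.8 and 13.8 CPM in RS and 2.37 to 25.8 CPM in SPC (log2 difference 1.61, SE 0.56, edgeR adjusted p = 0.03), and adult replicate 1 made the overlap. Cdkn2a had 0.272 to 1.18 CPM in RS and 1.24 to 8.40 CPM in SPC (-1.28, SE 0.50, adjusted p = 0.048). Both calls were lost when any of the 4 pools of PND30 or PND35 was left out, with adjusted p up to 0.14 and 0.13. Cdkn2b, at 5.42 to 14 CPM in RS and 6.07 to 9.10 CPM in SPC, had a difference of 0.55 (SE 0.29, adjusted p = 0.13), and Cdkn1b, at 0.837 CPM or less in RS, one of 0.55 (SE 0.76, adjusted p = 0.57). Of the pathway list 4 genes were higher, among them Ccnd3 (3.51, SE 0.33) and Rbl2 (3.62, SE 0.33), and 10 lower, among them Cdk2 (-2.26, SE 0.18) and Cdk4 (-2.0, SE 0.39). The median was -0.19 against 0.55 over the members and 0.05 over all genes.

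Sorting by DNA content at PND30 gave classes that did not rest on markers. Of the 1N cells 283 of 286 were spermatid-like and of the 4N cells 244 of 286 spermatocyte-like, and no library held both. In replicate 2 the sorted germ cells, 94 of 1N, 85 of 2N and 95 of 4N, were only part of its 464 germ cells. Cdkn1c had 34.6 and 94.2 CPM in 1N and 9.92 and 5.42 CPM in 4N cells (log2 difference 3.27, SE 0.60, edgeR adjusted p = 0.012), and Cdkn1a 9.36 and 28.3 CPM against 3.09 and 3.69 CPM (2.67, SE 0.64, adjusted p = 0.024). Cdkn2c had 30.1 and 28.5 CPM against 116.3 and 115.3 CPM (-1.82, SE 0.30, adjusted p = 0.011), and Cdkn2d 90.4 and 67.8 CPM against 262.4 and 248.1 CPM (-1.54, SE 0.26, adjusted p = 0.011). None of these overlapped, and 4 of 6 members tested were called against 26.5% of 19167 genes (14.1% higher and 12.4% lower). Cdkn1b, at 0.772 CPM or less, was not tested. With 1N replicate 2 left out, no member and no gene was called. The differences were then -1.88 for Cdkn2c and -1.43 for Cdkn2d, and 2.24 for Cdkn1c and 1.53 for Cdkn1a, both of which moved by over 1.5 times in fold. Without 1N replicate 1 these last were 3.90 and 3.33, both called. The 2N cells, of which 203 of 277 were spermatid-like, lay between with 18.4 and 31.0 CPM of Cdkn1c and 121.6 and 160.5 CPM of Cdkn2d. These cells are part of the PND30 sums used above.

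**Figure D3:**
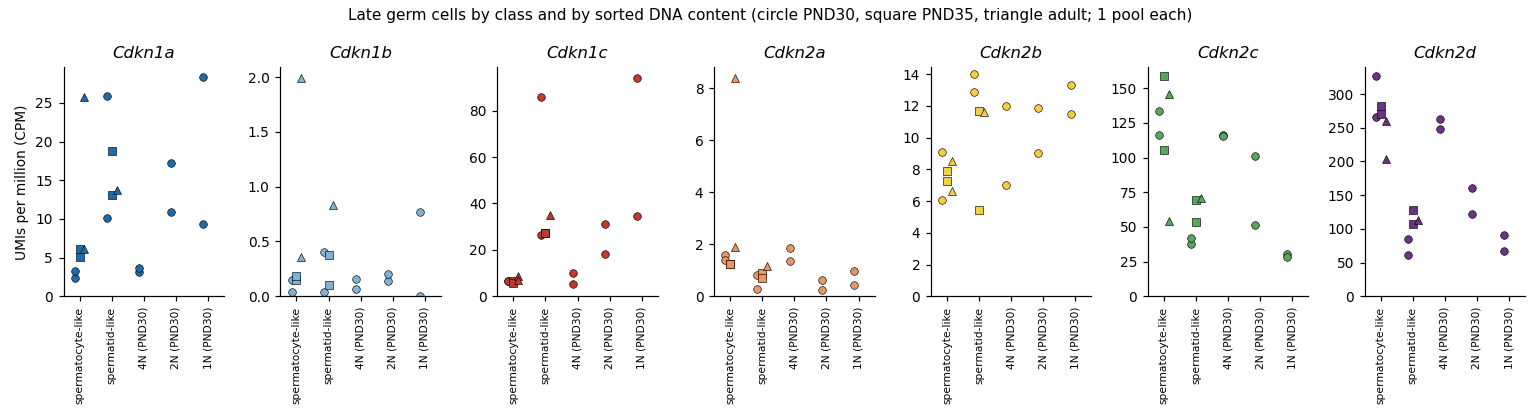
Levels of the 7 inhibitors in late wild-type germ cells (vertical axes CPM, linear from 0), by class and, at PND30, by sorted DNA content. Each point is 1 pool (circle PND30, square PND35, triangle adult). Cdkn2c and Cdkn2d are high in spermatocyte-like and 4N cells, and Cdkn1c is higher in spermatid-like and 1N cells.

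Germ cells of the fetal gonad differed from the cells around them in 6 of 7 members, 2 higher and 4 lower. Over all 15231 genes 62.9% were called, 32.9% higher and 30% lower. The BVSC and the negative gate of E11.5 to E18.5 were compared over 16 pools, with time-point as covariate. Of 34 wild-type libraries with gated cells 10 held both gates. Cdkn2a and Cdkn2b were germ cell transcripts there. Cdkn2a had 1.29, 13.8 and 44.1 CPM (lowest, median, highest) in the BVSC gate and 0, 0.376 and 6.92 CPM in the negative gate (log2 difference 4.04, SE 0.55, edgeR adjusted p = 3.4e-07). Cdkn2b had 0.889 to 46.9 CPM and 0 to 8.26 CPM (3.63, SE 0.61, adjusted p = 8.3e-06). With cells classed by markers, both were higher in germ than in somatic cells in 16 of 16 pools.

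Cdkn2d and Cdkn2c were lower in fetal germ cells. Cdkn2d had 19.3, 52.2 and 74.7 CPM in the BVSC gate and 38.9, 110.2 and 170.3 CPM in the negative gate (log2 difference -1.32, SE 0.23, edgeR adjusted p = 1.3e-05). Cdkn2c had 0, 1.59 and 24.4 CPM and 0, 12.9 and 65.2 CPM (-2.25, SE 0.57, adjusted p = 0.0011). Somatic cells had more Cdkn2d in 15 and more Cdkn2c in 13 of 16 pools.

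Cip/Kip genes were also lower in the germ cells or not called. Cdkn1b had 1.93, 15.8 and 41.8 CPM in the BVSC gate and 3.26, 26.4 and 52.0 CPM in the negative gate (log2 difference -1.05, SE 0.29, edgeR adjusted p = 0.0024). Cdkn1c had 11.7, 64.5 and 218.1 CPM and 22.1, 130.7 and 489.5 CPM (-1.27, SE 0.49, adjusted p = 0.025). The call of Cdkn1c was lost with the pool as a replicate block (-1.16, adjusted p = 0.093) and when any of 6 of the 16 pools was left out. Its levels crossed with age: at E11.5 somatic cells had 508.9 and 429.4 CPM and germ cells 21.3 and 14.7 CPM, and at E18.5 somatic cells had 63.8 and 37.4 CPM and germ cells 218.1 and 203.7 CPM. A change of the difference with age was not tested. Cdkn1a overlapped widely, at 7.35 to 218.1 CPM and 2.08 to 243.6 CPM (0.72, SE 0.59, adjusted p = 0.29). Without E17.5 replicate 2, where somatic cells had 184.4 CPM, it was called (1.29, adjusted p = 0.017).

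The gates were not pure, and their markers are given here. Sertoli markers summed to 12.3 to 612.3 CPM in the BVSC gate, highest at E17.5 replicate 1, and 193.6 to 2674.2 CPM in the negative gate. Interstitial and peritubular markers summed to 1.70 to 532.8 CPM and 387.4 to 6220.1 CPM, and all 8 and 9 markers were detected on both sides. Apart from the changes of Cdkn1c and Cdkn1a given above, leaving out 1 pool changed no call of a member, and E17.5 replicate 1 changed none. Of the pathway list 12 genes were lower and 3 higher in the BVSC gate, with a median of -0.45 against -1.05 over the members and 0.06 over all genes. Lower were Ccnd2 (-3.67, SE 0.27) and Skp2, which marks Cdkn1b protein for decay (-1.16, SE 0.18), and higher was Rb1 (2.12, SE 0.47).

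After birth 4 of 7 members were called between germ and somatic cells of PND0 to PND14, against 67.9% of 17797 genes (36.5% higher and 31.4% lower in germ cells, over 24 germ and 18 somatic sums). Cdkn2a had 13.3, 23.1 and 31.4 CPM in germ cells and 0, 3.56 and 30.4 CPM in somatic cells (log2 difference 1.97, SE 0.32, edgeR adjusted p = 1.5e-06), and was higher in germ cells in 17 of 18 pools. Cdkn2c had 2.11, 7.05 and 48.7 CPM and 5.04, 26.5 and 63.7 CPM (-2.21, SE 0.38, adjusted p = 5.6e-06). Cdkn2d had 27.3, 41.8 and 159.6 CPM and 26.1, 89.2 and 201.0 CPM (-1.19, SE 0.17, adjusted p = 1.7e-07). Cdkn1b had 2.54, 12.4 and 42.3 CPM and 3.65, 23.1 and 74.4 CPM (-1.35, SE 0.30, adjusted p = 0.00018). All 4 ranges overlapped, and Cdkn2c and Cdkn2d were higher in somatic cells in 16 of 18 pools each. Somatic sums after birth held 257.9 to 1683.8 CPM of gonadal germ cell and prospermatogonia markers, against 2023.6 to 2825.2 CPM in germ sums, with 9 of 9 detected in each, and 54 of 81 postnatal libraries held both kinds of cell. The part of germ cell RNA in the somatic levels was not tested.

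Cdkn1a and Cdkn1c had differences near 0 after birth, -0.11 with a 95% interval of -0.91 to 0.69 and -0.12 with one of -0.62 to 0.37. Cdkn2b had 8.30, 24.4 and 31.2 CPM in germ and 0, 10.1 and 121.1 CPM in somatic cells (0.54, SE 0.44, edgeR adjusted p = 0.27). Its somatic level was 37.9 and 121.1 CPM at PND12 and 69.8 and 70.4 CPM at PND14, above the germ cells of all those pools, and 46.6 CPM or less at earlier days. Members of the pathway list were called as often up as down, 8 and 8 of 26, with a median of 0.07 against -0.12 over the members and 0.13 over all genes.

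**Figure D4:**
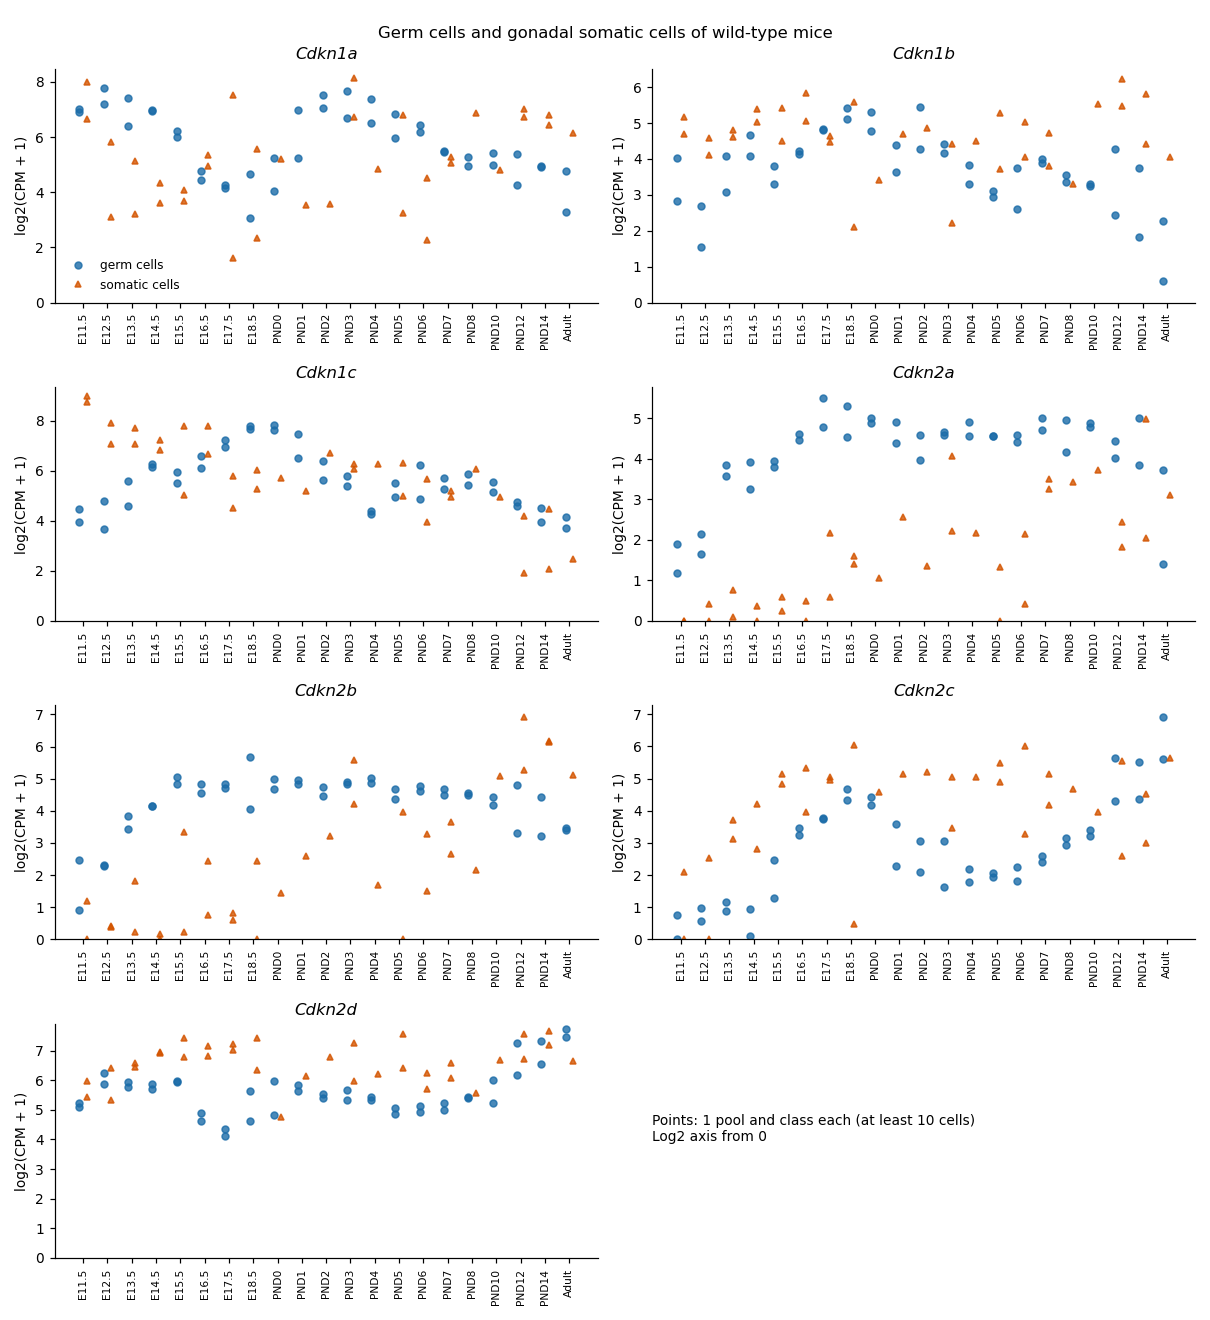
Levels of the 7 inhibitors in wild-type germ cells (circles) and gonadal somatic cells (triangles) from E11.5 to adult, 1 point per pool with at least 10 cells (vertical axes log2(CPM + 1) from 0). Cdkn2a and Cdkn2b stand higher in germ cells before birth, Cdkn2d higher in somatic cells of most pools up to PND14, and Cdkn1c crosses between E11.5 and E18.5.

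Within the somatic cells Cdkn1c set Sertoli-like cells apart from interstitial-like cells, the only one of 6 members tested that was called, against 39% of 11964 genes (18.3% higher and 20.8% lower in Sertoli-like cells). It had 1.41, 9.06 and 141.5 CPM in 19 Sertoli-like sums and 27.4, 88.7 and 203.6 CPM in 24 interstitial-like sums (log2 difference -2.39, SE 0.37, edgeR adjusted p = 2.4e-06). After birth the classes did not overlap, at 1.41 to 13.7 CPM and 27.4 to 187.1 CPM. Sertoli-like cells of E13.5 to E15.5 still had up to 141.5 CPM. Cdkn2b rose late in Sertoli-like cells, which nurse the germ cells: it had 58.9 and 131.2 CPM at PND12 and 84.6 and 133.7 CPM at PND14, and 32.4 CPM or less before, and over all ages its difference was 1.31 (SE 0.73, adjusted p = 0.16). Some sums held as few as 10 cells.

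Helq null germ cells showed no called member, 0 of 7 against 0.994% of 15598 genes (0.417% higher and 0.577% lower) in edgeR's quasi-likelihood test, and 0 in DESeq2. The 8 null sums of E11.5 to E15.5 were compared with 10 wild-type sums of the same time-points, with time-point as covariate. Of the 129 libraries 1 held both genotypes, so that differences between genotypes can hardly be told apart from those between libraries. At an unadjusted p below 0.05 there were 2 of 7 members, and 1664 of all 15598 genes. Helq itself had 15.9 to 40.3 CPM in null and 17.4 to 28.1 CPM in wild-type sums, but the 3′ UMIs do not read the deleted part and check nothing.

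Cdkn2b was the member nearest to a call upwards. It had 1.57 CPM at E11.5, 11.8 at E12.5, 13.2 and 25.4 at E13.5, 23.5 and 34.5 at E14.5, and 32.7 and 58 at E15.5 in null cells. In wild type it had 0.889 and 4.52, 3.91 and 4.03, 13.2 and 9.82, 16.6 and 16.9, and 32.3 and 27.6 CPM at the same days. Both null sums were at or above both wild-type sums from E13.5 on, and the log2 difference was 0.68 (SE 0.29, edgeR adjusted p = 0.38). Without wild-type E11.5 replicate 2 it was called (0.87, adjusted p = 0.044).

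Cdkn2d was the member nearest to a call downwards. It had 42.3, 42.3, 53.2, 47.5, 26.8, 31.4, 34.8 and 43.3 CPM in the null sums in order of age, and 36.6, 33.3, 74.7, 57.5, 53.9, 61.2, 57.8, 51.6, 62.6 and 60.3 CPM in wild type. From E12.5 on, every null sum lay below the wild-type sums of its day. The difference was -0.46 (SE 0.15, edgeR adjusted p = 0.2), and without null E11.5 replicate 1, the only null sum of that day, it was called (-0.61, adjusted p = 0.038).

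The other 5 members had 95% intervals that held 0. Cdkn1a had 99.8, 141.9 and 231.6 CPM (lowest, median, highest) in null and 62.7, 124.0 and 218.1 CPM in wild type (log2 difference 0.38, interval -0.07 to 0.83). At E15.5 it stood at 150.5 and 230.4 CPM in null and 62.7 and 73.8 CPM in wild type. Cdkn1c had 8.57, 69.0 and 114.4 CPM and 11.7, 35.6 and 76.6 CPM (0.42, interval -0.14 to 0.99), Cdkn1b 5.32, 16.4 and 39.3 CPM and 1.93, 10.9 and 24.5 CPM (0.52, interval -0.14 to 1.18), and Cdkn2a 2.63, 11.7 and 19.2 CPM and 1.29, 9.72 and 14.4 CPM (0.39, interval -0.11 to 0.89). Cdkn2c stayed at 4.54 CPM or less in both (-0.30, interval -2.2 to 1.6). The median over the members was 0.39, over the pathway list 0.12 and over all genes 0.05. Of the pathway list Ccnd1 (1.48, SE 0.25, adjusted p = 0.003) and Rb1 (0.95, SE 0.19, adjusted p = 0.014) were called, both higher in null cells.

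At E18.5 there was 1 null pool and no test. It had 13.6 CPM of Cdkn1a, 188.1 of Cdkn1c, 22.7 of Cdkn1b, 29.9 of Cdkn2a, 25.7 of Cdkn2b, 24.0 of Cdkn2c and 22.0 of Cdkn2d. The wild-type sums of that day had 7.35 and 24.2, 218.1 and 203.7, 41.8 and 33.7, 22.1 and 38.7, 15 and 50.2, 24.4 and 19.2, and 23.4 and 48.9 CPM in the same order. The null pool lay outside the wild-type pair for Cdkn1b, Cdkn1c and Cdkn2d, below it each time, and within it for the other 4.

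**Figure D5:**
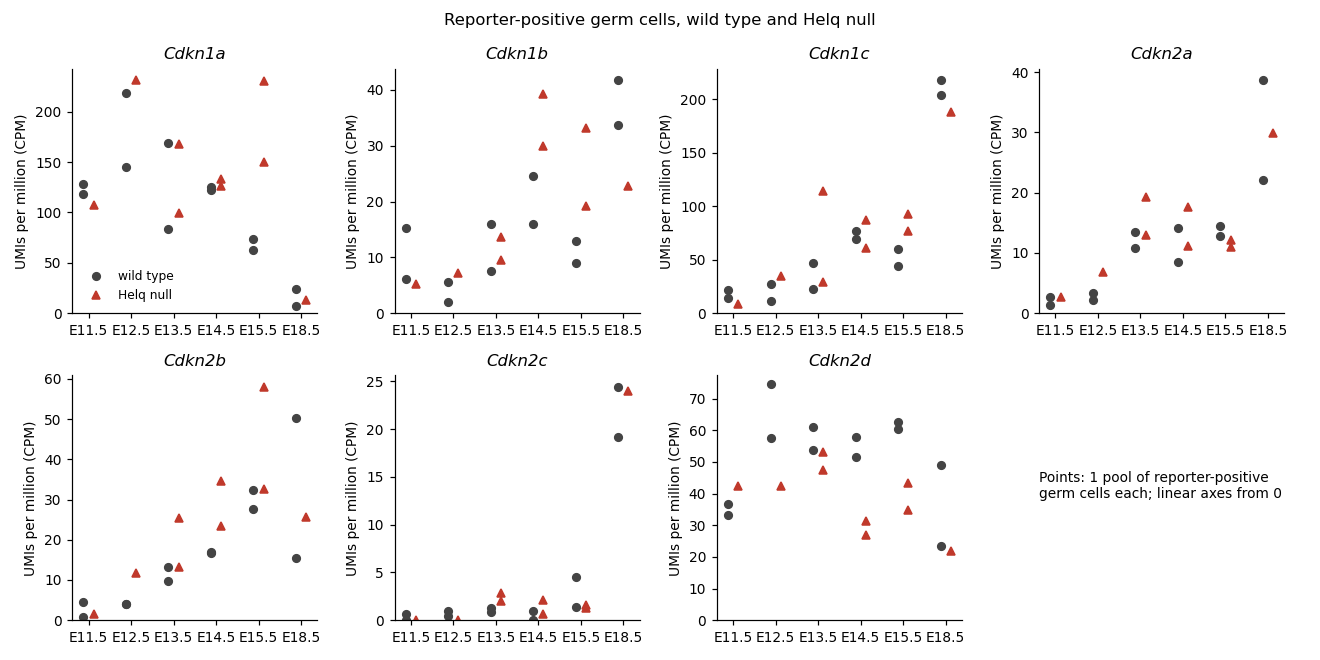
Levels of the 7 inhibitors in wild-type (circles) and Helq null (triangles) germ cells of E11.5 to E15.5 and E18.5, 1 point per pool (vertical axes CPM, linear from 0). No member was called between the genotypes. Null sums of Cdkn2b tend to the upper and those of Cdkn2d to the lower side of the wild-type points.

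The part of the gonad made no called difference. Between distal and proximal germ cells of E13.5 to E16.5 (8 sums each), 0 of 7 members and 0% of 14032 genes were called in edgeR's quasi-likelihood test, and 0 in DESeq2. At an unadjusted p below 0.05 there were 158 genes, among them 1 member, Cdkn1a. It had 14.8, 68.2 and 158.4 CPM in distal and 23.1, 91.0 and 177.9 CPM in proximal sums (log2 difference -0.39, SE 0.16, adjusted p = 1). The ranges of distal and proximal sums overlapped for all 7.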

How the data were processed

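Counts are UMIs per gene and cell, as deposited by the authors. According to the labels and the methods, they used UMI-tools, STAR on mm10 and featureCounts of Subread, with base calls by CASAVA 1.8. GEO's labels name libraries only, so time-point, replicate, genotype, gate and part of the gonad were taken from the deposited table of cells. The study's filter of cells was kept (more than 2000 genes, 10000 to 1000000 UMIs), and 11066 of 11360 cells passed. Cells were classed by the marker list with the highest mean level, and doublets were not called. Of 2482 late germ cells 188 lay near the border between SPC and RS.

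Counts were summed per class and pool of at least 10 cells, since cells are not replicates, and tested with edgeR 4.0.16 (R 4.3.3), by its quasi-likelihood test with TMM scaling, filterByExpr and Benjamini-Hochberg adjustment at 0.05. Time-point was a covariate where both groups held the same time-points. Germ and somatic cells, gates and parts of the gonad of 1 pool came from the same animals per the table of cells, so the pool was tried as a replicate block. The script was tested on simulated counts. Alternatives were DESeq2 1.42.0, other size factors, no filter, at least 30 cells, a stricter margin between classes, other cells of a gate, other time-points and leaving out each pool.

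Named genes were the 7 members, 26 genes of the CDK pathway, and for each member the 3 genes most like it over time. Members and lists were chosen with earlier results of these data known. Values behind 3 UMIs or fewer are at the floor of detection, and floors cover counting error only. Sequences were read from GENCODE and RefSeq on GRCm38 with Python 3.11.15.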

Additional observations from a re-analysis of the deposited data

Results flagged for a closer look

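Values far from the rest of their group, by Dixon's ratio at 95%, were found in 9 of 77 member groups of 4 to 10 sums, and chance gives about 1 in 20. In adult replicate 1, spermatocyte-like cells had 25.8 CPM of Cdkn1a, 1.99 CPM of Cdkn1b and 8.40 CPM of Cdkn2a, where the nearest other sums had 6.16, 0.362 and 1.88 CPM. That sum also had the low Ccna1 and the high Leydig markers given with the spermatocyte results, and their part in these values was not tested. In spermatid-like cells, PND30 replicate 2 had 85.9 CPM of Cdkn1c, with 35 CPM next, and PND35 replicate 2 had 5.42 CPM of Cdkn2b, with 11.6 CPM next.

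Among fetal sums, E18.5 replicate 2 had 50.2 CPM of Cdkn2b, with 31.1 CPM next, and it held 606.3 CPM of Leydig markers, the highest of the 8 sums of E16.5 to PND0. E11.5 replicate 1 had 0.889 CPM of Cdkn2b, with 3.91 CPM next. E10.5 replicate 2 had 0.978 CPM of Cdkn2c, with 0.0703 CPM next, and wild-type E15.5 replicate 1 had 4.54 CPM of Cdkn2c, with 1.42 CPM next.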

How the results depend on the processing

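Apart from leaving out pools, 436 values of members were taken under other settings, of which 414 kept their direction and their side of the threshold, 1 lost and 6 gained a call, and 15 changed sign, none of them called. Of 37 calls, 28 stood in every fit that left out 1 pool (147 fits). With the replicate block, 44 of 47 values were the same and the call of fetal Cdkn1c alone was lost. Low counts limit Cdkn2c before E15.5 and Cdkn1b after PND14.

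DESeq2 called 2 members at gonad entry (Cdkn2a as well, adjusted p = 0.026) and 2 between Sertoli-like and interstitial-like cells (Cdkn2c as well, -1.0, adjusted p = 0.044). It also called postnatal Cdkn2b (0.75, adjusted p = 0.048). Without the filter 3 members were called between the somatic classes (Cdkn2b 1.38 and Cdkn2c -0.88, both adjusted p = 0.034). With at least 30 cells per sum, fetal Cdkn1a was called (1.40, adjusted p = 0.013). Leaving out 1 pool gave 0 to 1 called members at gonad entry, 3 to 5 in RS, 0 to 4 by DNA content and 0 to 1 in Helq null cells.

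Signs changed as follows, in log2. With 1 pool left out, gonad entry Cdkn2d ran from -0.20 to 0.21 and RS Cdkn1b from -0.005 to 0.97. Cdkn2a in the return to division was -0.004 under DESeq2 and under relative log expression (RLE) factors. Postnatal Cdkn1a was 0.04 under both, 0.18 with 30 cells, 0.02 with the replicate block and -0.26 to 0.11 with a pool left out. Postnatal Cdkn1c was 0.05, 0.04, 0.12 with the block and -0.23 to 0.15. Between somatic classes Cdkn2d was 0.04 without the filter, 0.68 with 30 cells and -0.11 to 0.09 with a pool left out, Cdkn2b -0.37 with 30 cells, and Cdkn1a 0.59 with a stricter margin and -0.52 to 0.21. Helq null Cdkn2c was 0.53 at E13.5 to E15.5 alone and -0.71 to 0.12 with a pool left out. Between parts of the gonad Cdkn2c was 0.57 with 30 cells and -0.49 to 0.18 with a pool left out, Cdkn1b -0.05 to 0.18, Cdkn1c -0.05 to 0.10 and Cdkn2b -0.06 to 0.27. The cause was not tested.

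Counts over all genes moved at gonad entry (1364, 2215 under DESeq2, 664 at the lowest with a pool left out), by DNA content (5074, 0 at the lowest), between somatic classes (4669, 978 with 30 cells) and in Helq null cells (155, 474 under DESeq2, 519 without the filter, 70 at E13.5 to E15.5 alone). RLE factors moved the median of all genes from 0.25 to 0.35 at arrest, from -0.28 to -0.40 in the return to division and from 0.13 to 0.30 after birth.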

Other observations

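The genes whose levels in wild-type germ cells were most like those of each member are given as a description, by Pearson's r of log2(CPM + 1) over the means of 25 time-points, among 8541 genes with a mean of at least 20 CPM. Time-points share libraries and stage between all genes. Nearest to Cdkn1a were Tcl1, which encodes a cofactor of AKT kinases (0.953), Pced1b (0.931) and Etv5, a transcription factor of spermatogonial stem cells (0.930). Etv5 ranged from 4.35 to 280.1 CPM. Nearest to Cdkn1b were Ppic (0.928), Ppm1m (0.922) and Txnrd2, a mitochondrial thioredoxin reductase (0.919), and nearest to Cdkn1c were Ctxn1 (0.917), Abcd2 (0.904) and Ndrg2 (0.892).

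Nearest to Cdkn2a were Nefh, a neurofilament gene (0.983), Usp3 (0.977) and Cbx8, a Polycomb subunit (0.970). Nearest to Cdkn2b were Hip1 (0.966), Fam217b (0.963) and Gm6880 (0.961). Cdkn2c was most like 1700064M15Rik (0.983), Cfap206, which encodes a protein of cilia and flagella (0.983), and Efcab5 (0.979). Cfap206 ranged from 0 to 502.8 CPM. Cdkn2d was most like Mllt10 (0.956), Sil1 (0.945) and Ccdc96 (0.929). Among the members themselves Cdkn1a and Cdkn2c ran most opposite to each other (-0.86), and Cdkn1b and Cdkn2d next (-0.77).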
